A study of Mus musculus with 18 samples.

Results

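Nuclear receptors are transcription factors, most of which are switched by small lipid-soluble ligands. The 35 genes described here are members of that family. The list leaves out the circadian clock receptors, the bile acid and xenobiotic receptors, and some others, among them Hnf4a. They were chosen by gene symbol, with earlier results of these data known, and all 35 were found among the 20105 genes of the deposited count table. They were read as lipid sensors (PPARs and LXRs), retinoid X receptors, receptors for retinoic acid, thyroid hormone and vitamin D, steroid and estrogen-related receptors, orphan receptors, and the NR4A receptors.

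The RNA came from liver nuclei of 6 female HEP-INTACT mice. INTACT is a method in which nuclei of a chosen cell type carry a tag and are captured from a mixed nuclear suspension; here the captured nuclei are those of hepatocytes, and the sources used here do not give the transgene, its promoter or the age of the mice. The fasted mice, 3 in number, went without food for 16 h from zeitgeber time 12 (ZT12, lights off), and the fed mice, also 3, ate ad libitum and were killed at the same clock time. Each liver gave an immunoprecipitate of fresh tissue (fresh IP), an immunoprecipitate of frozen tissue (frozen IP) and the fresh supernatant, which holds the nuclei not captured, so the 6 groups of 3 libraries are fresh IP fasted, fresh IP fed, frozen IP fasted, frozen IP fed, supernatant fasted and supernatant fed. All mice carry the tag, so no group shows untagged liver.

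Many of these receptors bind DNA as a dimer with a retinoid X receptor. A ligand-free dimer tends to hold corepressors on its target genes, and ligand exchanges them for coactivators. In liver, PPAR alpha drives fatty acid oxidation and ketogenesis during fasting, LXR alpha drives fatty acid synthesis and cholesterol efflux, thyroid hormone receptor beta sets lipid and carbohydrate programmes, and the NR4A receptors are immediate early genes that respond to cAMP and glucagon.

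Total counts ran from 13828945 to 54434263 per library. Levels are given as CPM, the counts of a gene per 1000000 counts of its library, with library sizes scaled by TMM (edgeR's trimmed mean of M-values) over all 18 libraries. Gene lengths given with the counts are those of the whole transcribed span, introns included, and counts were taken to cover that span. The sources used here do not describe the counting. The levels are those of nuclear RNA, and the part of it that was unspliced was not measured. A count of 0 allows up to 3 counts, which is 0.0551 to 0.217 CPM depending on the library, and covers counting error only. A gene was called higher or lower at an adjusted p under 0.05 in edgeR's quasi-likelihood test with Benjamini-Hochberg adjustment over all genes tested, and all adjusted p-values below come from it unless another source is named. Letters A, B and C name the libraries of a group.

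The labelled fractions were checked with marker genes. All 10 hepatocyte markers were higher in IP than in supernatant, and all 10 endothelial, 9 Kupffer cell, 10 stellate cell and 8 lymphocyte markers were lower. The summed Kupffer markers of fresh IP were 0.272% of those of the supernatant in fasted mice and 0.197% in fed mice, the endothelial sum was 1.73% and 3.28%, and the stellate sum was 6.49% and 8.89%. The summed hepatocyte markers of the supernatant were 4.78% of those of fresh IP in fasted mice and 3.94% in fed mice. A cholangiocyte list did not separate the fractions in the labelled direction, since 3 of its 5 tested genes were higher in IP and 1 was lower. Since these are bulk libraries, fewer nuclei of a type and less RNA per nucleus cannot be told apart.

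Per kilobase of counted span, Ppara and Rxra, the gene of its main dimer partner, stood highest of the 35 listed genes in hepatocyte nuclei. Family members outside the list were not ranked. Ppara averaged 19.6 ± 2.85 CPM per kb in fresh IP of fasted mice and 16.1 ± 3.70 in fresh IP of fed mice (SD, n = 3 each). Rxra averaged 16.9 ± 3.66 and 13.6 ± 3.73 CPM per kb in the same groups, which is within the spread of Ppara. A second tier of Nr2f6, Nr1h3, Nr1h2, Nr5a2 and Thrb lay between 4.85 and 7.12 CPM per kb in fasted mice and between 5.41 and 7.36 CPM per kb in fed mice. In the supernatant the order was another one: Nr1h3, which encodes LXR alpha, led with 18.8 ± 2.08 CPM per kb in fasted mice and 27.8 ± 1.71 in fed mice, followed by Rxra with 8.35 ± 0.33 and 10.2 ± 2.99 and by Nr1h2, which encodes LXR beta, with 5.72 ± 0.23 and 5.84 ± 1.27 (SD, n = 3 each).

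**Figure D1:**
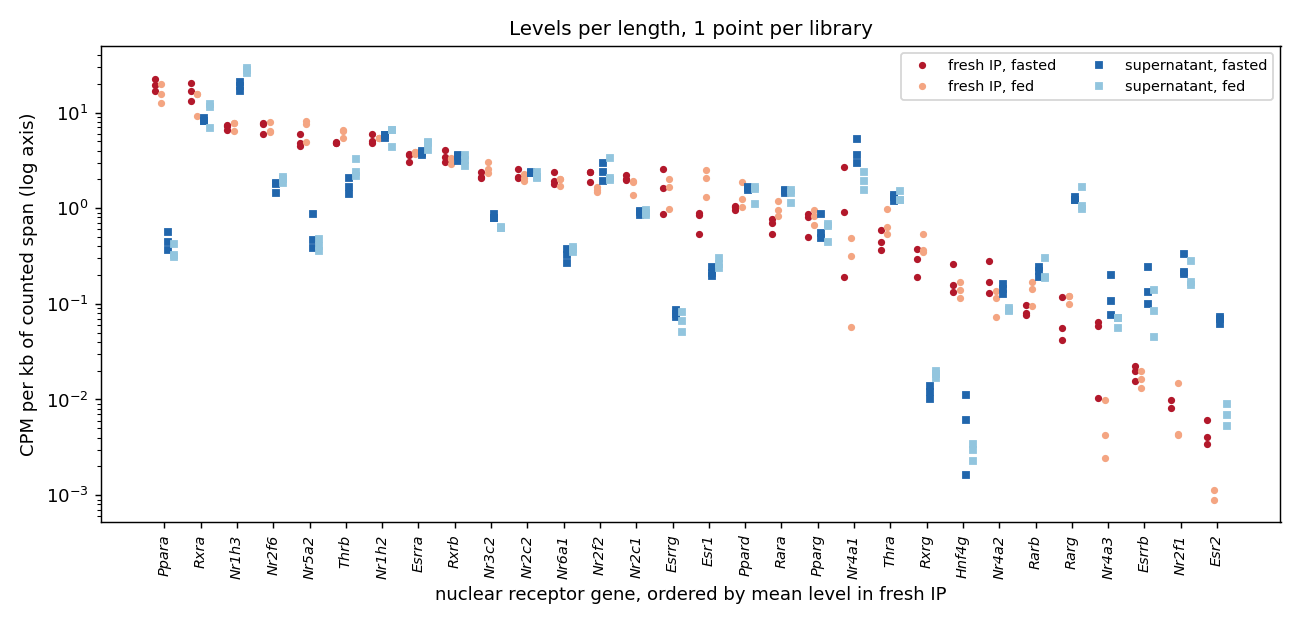
Levels of nuclear receptor genes in CPM per kb of counted span on a log axis, with 1 point per library of fresh IP and supernatant; libraries at 0 have no point, and genes with a mean at or under 0.002 in fresh IP are left out. Ppara and Rxra are highest in fresh IP, and Nr1h3 is highest in the supernatant.

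At the other end, 4 members had too few counts to be tested in any comparison. Nr0b1, the gene of the ligand-free repressor DAX1, had 0 counts in all 18 libraries, and Nr2e1, a neural orphan receptor, had 1 count in all. Rorb, known from retina and brain, reached 10 counts over the 3 supernatants of fasted mice and 7 over those of fed mice. The progesterone receptor gene Pgr reached 25 and 16 counts in the same groups. Vdr, Esr2 and Nr2f1 were tested only where supernatants took part, because their counts in IP were low: Vdr, the vitamin D receptor gene, had 2 counts over the 3 fresh IP libraries of fasted mice and 3 over those of fed mice.

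Between the fractions, 26 of 31 tested members differed, 12 of them higher and 14 lower in IP. That is 83.9% of the members tested, close to the 85.1% of all 14322 genes that were called in this comparison (42% higher, 43% lower), so a fraction difference as such does not mark these genes. The log2 differences ran from -6.28 to 5.42, and the members of a subfamily often lay on opposite sides.

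Among the lipid sensors, Ppara was 5.42 ± 0.16 higher on the log2 scale in IP (SE, adjusted p = 2.1e-11). Its levels were 1613, 1374 and 1209 CPM in the fresh IP and 31.5, 26.3 and 40.3 CPM in the supernatant of fasted mice, and 1419, 894 and 1120 CPM in the fresh IP and 30.0, 23.1 and 21.9 CPM in the supernatant of fed mice. The supernatant thus held 2.34% of the IP level in fasted mice and 2.18% in fed mice, lower than the corresponding share of the summed hepatocyte markers. Ppard, the ubiquitous family member, was 0.42 ± 0.16 lower in IP (adjusted p = 0.0137), a call that ended without supernatant fed A (adjusted p = 0.0616). Pparg, the adipocyte regulator, had a log2 difference of 0.29 ± 0.22 (adjusted p = 0.164). Nr1h3 was 1.72 ± 0.07 lower in IP (adjusted p = 1.2e-09), while the log2 difference of Nr1h2 was -0.16 ± 0.11 (adjusted p = 0.192).

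The retinoid X receptors split by isoform. Rxrg, best known from muscle and brain, was low but sat almost wholly with the hepatocyte nuclei, with 1474 counts in fresh IP and 63 in supernatants of fasted mice, and 1785 and 86 counts in those of fed mice. Its log2 difference was 4.49 ± 0.18 (adjusted p = 6.5e-10). Rxra was 0.66 ± 0.21 higher in IP (adjusted p = 0.0048), and Rxrb had a log2 difference of -0.04 ± 0.10 (adjusted p = 0.675).

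Thyroid hormone and retinoic acid receptors lay on opposite sides as well. Thrb, the main hepatic thyroid hormone receptor, was 1.33 ± 0.13 higher in IP (adjusted p = 4.3e-07), and Thra was 1.22 ± 0.18 lower (adjusted p = 1.7e-05). All 3 retinoic acid receptor genes were lower in IP, Rarg by 3.80 ± 0.25 (adjusted p = 9.4e-09), Rarb by 1.10 ± 0.18 (adjusted p = 2.2e-05) and Rara by 0.87 ± 0.13 (adjusted p = 2.0e-05). Rarg stood in fresh IP at 5.79% of its supernatant level in fasted mice and 9.18% in fed mice. The summed stellate markers stood at 6.49% and 8.89% and the endothelial ones at 1.73% and 3.28%. Which cell type holds Rarg was not tested. Vdr was lower still, with a fitted difference of -6.28 ± 0.28 that depends on the prior count at 5 counts over the 6 fresh IP libraries, against 410 and 122 counts in supernatants of fasted and fed mice.

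Both estrogen receptors were present, on different sides. Esr1, which encodes estrogen receptor alpha, was 2.29 ± 0.19 higher in IP (adjusted p = 3.4e-08), and Esr2, which encodes estrogen receptor beta, was 3.51 ± 0.23 lower (adjusted p = 1.6e-07). Of the estrogen-related receptors, which bind no estrogen and act on mitochondrial genes, Esrrg was 4.45 ± 0.29 higher (adjusted p = 1.1e-08), Esrrb 2.77 ± 0.32 lower (adjusted p = 1.5e-06) and Esrra 0.25 ± 0.06 lower (adjusted p = 0.0124). Nr3c2, the mineralocorticoid receptor gene, was 1.71 ± 0.07 higher in IP (adjusted p = 1.1e-09).

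The orphan receptors Hnf4g and Nr5a2, a relative of HNF4 alpha and the regulator LRH-1 of bile acid and cholesterol genes, were 5.17 ± 0.42 and 3.55 ± 0.23 higher in IP (adjusted p = 1.7e-08 and 5.3e-09). Nr6a1, known from germ cells, was 2.47 ± 0.11 higher (adjusted p = 1.8e-10), Nr2f6 1.88 ± 0.10 higher (adjusted p = 2.2e-09) and Nr2c1 1.02 ± 0.09 higher (adjusted p = 1.3e-07), whereas its partner Nr2c2 had a log2 difference of -0.12 ± 0.07 (adjusted p = 0.117). The COUP-TF genes Nr2f1 and Nr2f2, known from endothelium and mesenchyme, were 5.09 ± 0.34 and 0.44 ± 0.16 lower (adjusted p = 1.4e-07 and 0.0135). The call of Nr2f2 ended without supernatant fasted C or supernatant fed A (adjusted p up to 0.0591). Most of the span of Nr2f6 is overlapped by Ocel1 on the other strand. Thrb, Rarb, Nr6a1, Nr2c2, Nr2f1, Nr2f2, Pparg, Esrrg and Esrra have opposite-strand overlaps over smaller parts of their spans. Counts of all these genes could hold reads of those neighbours if counting ignored strand, and the strand setting is unknown.

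**Figure D2:**
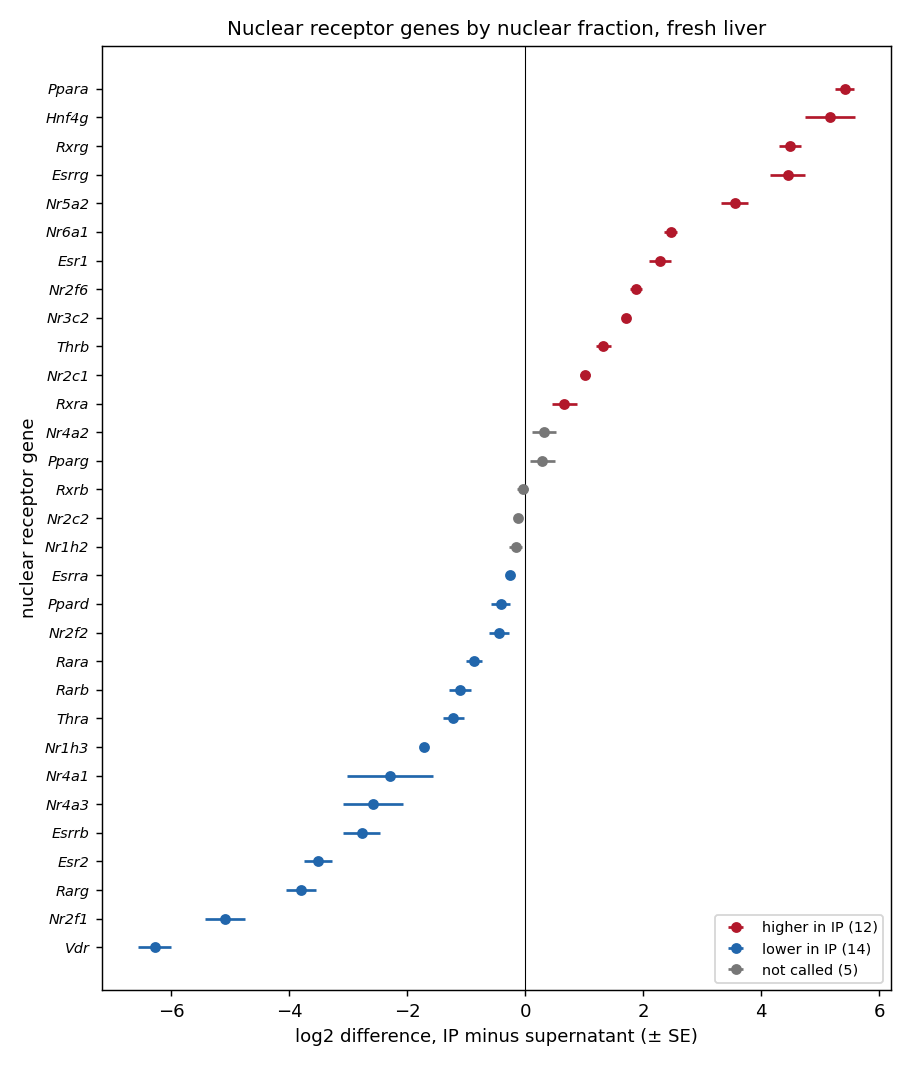
Log2 difference between IP and supernatant of fresh liver, averaged over both feeding states, for the 31 tested nuclear receptor genes, with SE bars. The 12 genes called higher in IP are led by Ppara at 5.42, and the 14 called lower end with Vdr at -6.28.

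Few of the members passed the test between fasted and fed mice in hepatocyte nuclei. In fresh IP, 2 of 28 tested members were higher and 1 was lower, 10.7% of those tested, against 25.1% of all 12548 genes (12.4% higher, 12.6% lower). In frozen IP, 1 was higher and 2 were lower, again 10.7%, against 22.6% of all 12926 genes (11% higher, 11.6% lower). At an unadjusted p under 0.05 there were 7 members in fresh IP and 8 in frozen IP. DESeq2 called 6 and 5 members there, and 3758 and 3649 of all genes. The median log2 change was 0.02 over the members and 0.01 over all genes tested in fresh IP, and 0.00 and 0.01 in frozen IP. The frozen IP comes from the same mice as the fresh IP and repeats the measurement, not the animals.

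In the supernatant, 5 of 31 tested members changed, 4 higher and 1 lower, which is 16.1% against 6.22% of all 13921 genes (3.38% higher, 2.84% lower). The median log2 change was 0.11 over the members and 0.00 over all genes tested. The summed markers of the supernatant also differed with feeding: hepatocyte markers summed to 872 to 1473 CPM in fasted mice and 500 to 912 CPM in fed mice, endothelial markers to 2889 to 3898 and 2459 to 3164 CPM, and Kupffer markers to 3241 to 4633 and 4770 to 6768 CPM. Lymphocyte markers summed to 1796 to 2081 CPM in fasted mice and 2319 to 3181 CPM in fed mice, and no marker of these lists was at 0 in the supernatants. The part of this shift in the changes below was not tested.

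**Figure D3:**
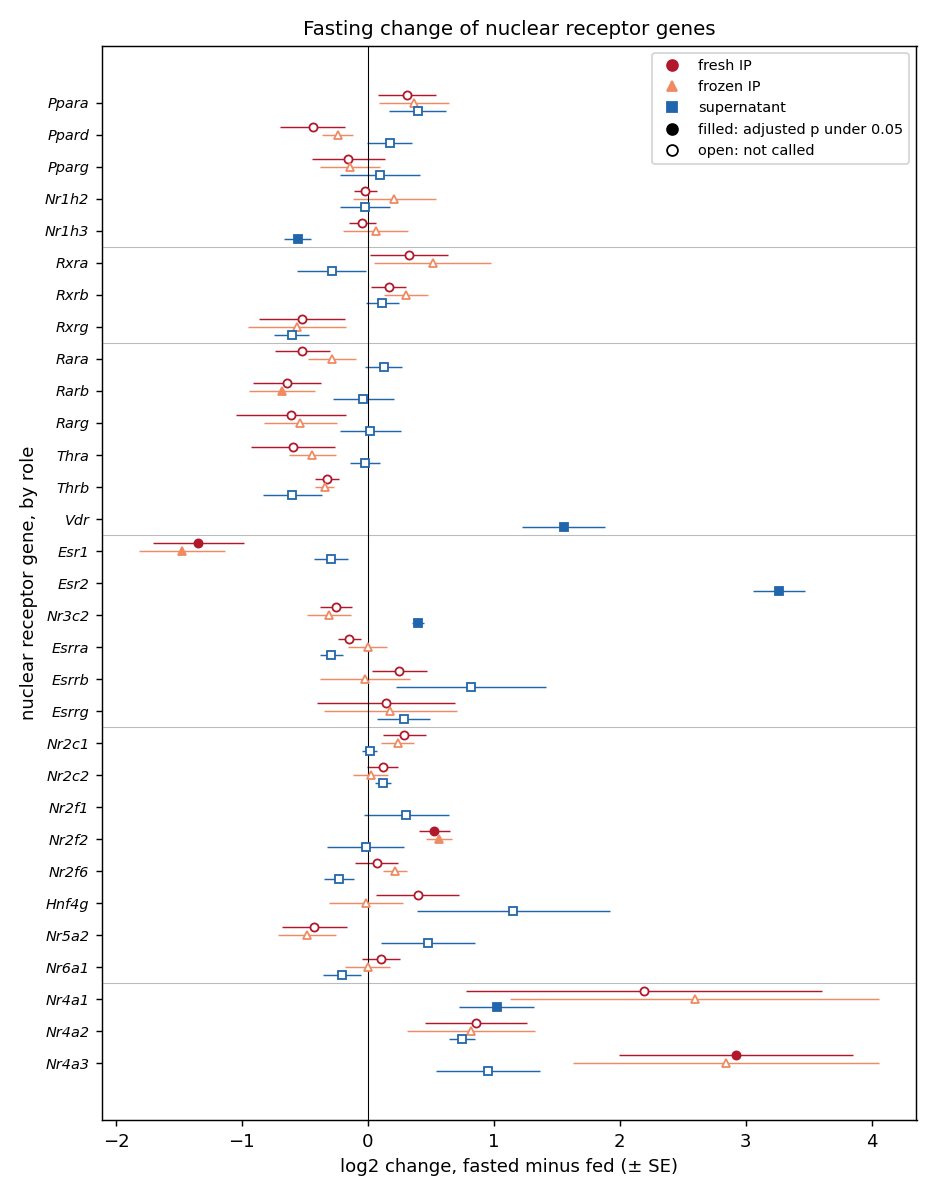
Log2 change between fasted and fed mice in fresh IP, frozen IP and supernatant, with SE bars, for the nuclear receptor genes tested in each; horizontal lines part the role groups. Esr1 lies to the left in both IP preparations, Vdr, Esr2 and Nr2f1 were tested in the supernatant alone, and the NR4A genes lie to the right with wide bars in IP.

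The lipid sensor that directs the fasting response did not itself pass the test. The log2 change of Ppara was 0.31 ± 0.23 in fresh IP, 0.37 ± 0.28 in frozen IP and 0.40 ± 0.23 in the supernatant (SE, adjusted p = 0.288, 0.284 and 0.232). Its levels in fresh IP, given above, overlapped between fasted and fed mice. The targets of PPAR alpha, taken from a list of 16 genes, were higher in 13 of 16 cases in fresh IP, 13 of 16 in frozen IP and 15 of 16 in the supernatant, with none lower, and their median log2 changes were 1.72, 1.80 and 1.61. Of all genes tested, 12.4%, 11% and 3.38% were called higher in these comparisons. The list was drawn up with earlier results of these data known and is no independent evidence of its direction.

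Among those targets, Acot1, a long-chain acyl-CoA thioesterase, was 5.11 ± 0.30 higher in fresh IP (adjusted p = 0.00025). The hormone gene Fgf21 was 5.03 ± 0.58 higher (adjusted p = 0.0015), and Cyp4a14, a fatty acid omega-hydroxylase, 4.57 ± 0.29 higher (adjusted p = 0.00037). In the supernatant the same genes were 1.88 ± 0.23, 5.22 ± 0.22 and 4.07 ± 0.10 higher (adjusted p = 0.0052, 0.0092 and 7.3e-06). The value of Fgf21 there depends on the prior count, since it had 22, 19 and 15 counts in supernatants of fasted mice, against 1 count over the 3 supernatants of fed mice. The other PPAR genes, Ppard and Pparg, passed in no preparation, with log2 changes between -0.44 and 0.17, while the authors' deposited table lists Ppard in fresh IP at -0.51 with an adjusted p of 0.0348.

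Of the LXR genes, Nr1h3 fell in the supernatant to 209, 230 and 184 CPM in fasted mice, against 289, 327 and 308 CPM in fed mice. The groups did not overlap, and the log2 change was -0.56 ± 0.11 (adjusted p = 0.0266). In fresh IP its levels were 73.2, 81.2 and 79.6 CPM in fasted mice and 86.4, 71.0 and 86.6 CPM in fed mice, with a change of -0.04 ± 0.11 (adjusted p = 0.809). The difference between those changes, 0.46 ± 0.15, did not pass (adjusted p = 0.108). The call in the supernatant ended without fasted A, fasted C, fed B or fed C (adjusted p up to 0.101). The summed Kupffer markers were also lower in each fasted supernatant than in each fed one, and their part was not tested.

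Of 11 LXR target genes, 3 were lower and none higher in fresh IP, 4 were lower and none higher in frozen IP, and 2 were higher and 2 lower in the supernatant. The shares of all genes called were 25.1%, 22.6% and 6.22% in these comparisons. Srebf1, the regulator of lipogenesis, averaged 36.1 ± 9.24 CPM in fasted mice and 363 ± 132 CPM in fed mice in fresh IP (SD, n = 3 each), a log2 change of -3.31 ± 0.37 (adjusted p = 0.00099). The desaturase gene Scd1 changed by -4.83 ± 1.03 (adjusted p = 0.0068) and the phospholipid transfer protein gene Pltp by -2.51 ± 0.44 (adjusted p = 0.0026). These fell while Nr1h3 and Nr1h2, the genes of the receptors that give the list its name, passed no test in IP.

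None of the retinoid X receptor genes passed in any preparation by edgeR or by DESeq2, and at an unadjusted p under 0.05 there was 1, Rxrg in the supernatant. Rxra had log2 changes of 0.33 ± 0.31 in fresh IP, 0.51 ± 0.46 in frozen IP and -0.29 ± 0.27 in the supernatant (adjusted p = 0.371, 0.293 and 0.469), and Rxrg of -0.52 ± 0.34, -0.56 ± 0.39 and -0.61 ± 0.14 (adjusted p = 0.183, 0.197 and 0.202). In IP, fed B was the lowest library of Rxra, with 802 CPM in fresh and 523 CPM in frozen tissue, and fed A and C lay between 1327 and 1360 CPM.

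The retinoic acid and thyroid hormone receptor genes had a median log2 change of -0.59 in fresh IP and -0.44 in frozen IP, with 1 call, Rarb in frozen IP. Rarb, a receptor gene that is itself induced by retinoic acid, had 52.5, 50.1 and 64.0 CPM in fresh IP of fasted mice, against 93.1, 110 and 61.2 CPM in fresh IP of fed mice. In frozen IP it had 58.5, 56.4 and 69.3 CPM in fasted mice, against 103, 122 and 68.9 CPM in fed mice. Fed C overlapped the fasted libraries in both preparations.

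The change of Rarb passed in frozen IP at -0.68 ± 0.26 (adjusted p = 0.0489) and not in fresh IP at -0.64 ± 0.27 (adjusted p = 0.0556). The frozen call ended without each library in turn except fed C (adjusted p up to 0.146), and the authors' deposited table lists -0.75 with an adjusted p of 0.0114 in frozen IP and -0.71 with 0.0172 in fresh IP. Beside it, the stellate markers, a cell type in which Rarb is known, summed to 47.9 to 62.9 CPM in fresh IP of fasted mice and 66.4 to 125 CPM in those of fed mice, and their part was not tested. In the supernatant, where Rarb was higher, its change was -0.04 ± 0.24 (adjusted p = 0.931).

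Rara, Rarg and Thra had log2 changes of -0.52 ± 0.22, -0.61 ± 0.44 and -0.59 ± 0.33 in fresh IP (adjusted p = 0.0668, 0.273 and 0.140). For fresh IP the authors' deposited table lists Rara at -0.59 and Thra at -0.66, with adjusted p-values of 0.0064 and 0.0196. Thrb was at 1875, 1814 and 1798 CPM in fresh IP of fasted mice, against 2504, 2442 and 2029 CPM in fed mice. Every fasted library was below every fed one, yet the change of -0.33 ± 0.10 did not pass (adjusted p = 0.126). It was -0.34 ± 0.08 in frozen IP and -0.60 ± 0.23 in the supernatant (adjusted p = 0.130 and 0.105), and DESeq2 called all 3 (adjusted p = 0.0337, 0.0329 and 0.0243).

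Of 11 tested genes of retinoid handling, 1 rose and 2 fell in fresh IP: the retinol carrier Rbp4 by 0.93 ± 0.12 (adjusted p = 0.0041), the retinoic acid hydroxylase Cyp26a1 by -2.30 ± 0.95 (adjusted p = 0.039) and the retinal reductase Dhrs3 by -0.94 ± 0.33 (adjusted p = 0.0335). In frozen IP 2 rose and 1 fell, and Dhrs3 no longer passed at -0.83 ± 0.34 (adjusted p = 0.0588). In the supernatant 1 of 12 rose, Rbp4 by 1.22 ± 0.29 (adjusted p = 0.0229). These counts lie near the shares of all genes called, 25.1% in fresh IP, 22.6% in frozen IP and 6.22% in the supernatant.

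Of 8 tested and reported genes of thyroid hormone handling and response, 1 rose and 1 fell in fresh IP and in frozen IP. The transcription factor gene Klf9 rose by 0.89 ± 0.12 (adjusted p = 0.0037) and the lipogenic gene Thrsp changed by -6.20 ± 0.98 (adjusted p = 0.0024), both in fresh IP. In the supernatant 2 rose and none fell, and Klf9 was 1.52 ± 0.23 higher there (adjusted p = 0.0072). Klf9 is also known as a glucocorticoid target. The counts in IP lie near the 25.1% and 22.6% of all genes called in fresh and frozen tissue, and in the supernatant the share of all genes was 6.22%.

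Vdr and the genes of vitamin D handling gave calls in different fractions. Vdr was at 3.38, 2.92 and 3.36 CPM in supernatants of fasted mice, against 0.758, 0.929 and 1.65 CPM in supernatants of fed mice. The groups did not overlap, and the log2 change was 1.55 ± 0.33 (adjusted p = 0.0273). The call ended without each library in turn except fed C (adjusted p up to 0.0999), with changes between 1.33 and 1.95. In hepatocyte nuclei, 2 of 3 tested genes of vitamin D handling fell: the 25-hydroxylases Cyp2r1 by 1.22 ± 0.18 on the log2 scale (adjusted p = 0.0027) and Cyp27a1, which also makes bile acids, by 0.89 ± 0.14 (adjusted p = 0.0058) in fresh IP. Of all genes tested in fresh IP, 25.1% were called. In the supernatant none of the 3 genes of vitamin D handling passed by edgeR or by DESeq2, and none had an unadjusted p under 0.05.

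Esr1 (mm10 chr10:4611989-5005633, plus strand) was the member with the steadiest fall. It had 335, 211 and 352 CPM in fresh IP of fasted mice, against 823, 977 and 518 CPM in fresh IP of fed mice. In frozen IP it had 320, 213 and 315 CPM in fasted mice, against 780, 1044 and 533 CPM in fed mice. Every fasted library lay below every fed one in both preparations.

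On the log2 scale Esr1 changed by -1.35 ± 0.36 in fresh tissue IP (adjusted p = 0.0126) and by -1.48 ± 0.34 in frozen tissue IP (adjusted p = 0.0085), and each call held without any single library. Beside it, the cholangiocyte list, which was mostly higher in IP than in supernatant and rests there largely on Pkhd1, summed to 197 to 248 CPM in fresh IP of fasted mice and 561 to 581 CPM in those of fed mice. In frozen IP it summed to 222 to 290 CPM in fasted mice and 577 to 663 CPM in fed mice, and its part in the fall of Esr1 was not tested. In the supernatant Esr1 had 82.2, 77.7 and 96.3 CPM in fasted mice, against 119, 103 and 94.5 CPM in fed mice, and its change of -0.30 ± 0.13 did not pass (adjusted p = 0.165). The change in IP exceeded that in the supernatant by -1.11 ± 0.39 (adjusted p = 0.0443, and 0.0287 with the mouse as replicate block). That difference lost its call without any 1 of 10 of the 12 libraries, all but fresh IP fasted C and fresh IP fed C (adjusted p up to 0.131), and under RLE scaling (adjusted p = 0.0531). The authors' deposited table lists -1.42 for fresh IP and -1.55 for frozen IP, with adjusted p-values of 5.1e-06 and 5.4e-07.

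Esr2 (mm10 chr12:76120419-76177259, minus strand) moved the other way, in the nuclei that were not captured. It had 3.53, 3.95 and 4.17 CPM in supernatants of fasted mice, against 0.514, 0.387 and 0.300 CPM in supernatants of fed mice. These levels rest on 161, 161 and 170 counts in fasted mice and 21, 15 and 10 counts in fed mice. The log2 change was 3.26 ± 0.21, a 9.61-fold rise (adjusted p = 0.0015), and the call held without any single library, with changes between 3.12 and 3.48.

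In fresh IP, Esr2 had 7, 18 and 7 counts in fasted mice and 3, 0 and 2 in fed mice, too few to enter the test. Without the filter on low counts it passed there (log2 change 2.48, adjusted p = 0.0351), and the authors' deposited table lists 2.51 with an adjusted p of 0.0038. Its fresh IP level was 6.62% of that of the supernatant in fasted mice and 9.55% in fed mice. The share in fed mice rests on 5 counts in fresh IP and 46 in the supernatant. The summed stellate markers stood at 6.49% and 8.89% and the endothelial ones at 1.73% and 3.28%. Which cell type holds Esr2 was not tested. The genes around Esr2 did not pass: of the 6 tested neighbours within 250 kb, Syne2, which ends 9490 bp away, changed by -0.07 ± 0.18 (adjusted p = 0.813), and Hspa2 by 0.83 ± 0.14 (adjusted p = 0.154).

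Nr3c2 rose in the supernatant. It had 269, 270 and 298 CPM in supernatants of fasted mice, against 216, 212 and 211 CPM in those of fed mice, a log2 change of 0.40 ± 0.05 (adjusted p = 0.0240). In fresh IP it had 820, 705 and 728 CPM in fasted mice, against 796, 885 and 1034 CPM in fed mice, with a change of -0.25 ± 0.13 (adjusted p = 0.262). In frozen IP its change was -0.31 ± 0.18 (adjusted p = 0.236), for which the authors' deposited table lists -0.38 with an adjusted p of 0.0285. The 2 changes differed by -0.71 ± 0.14 (adjusted p = 0.0221, and 0.0415 with the mouse as replicate block). The call in the supernatant ended without each of the 6 libraries in turn (adjusted p up to 0.0802). That of the difference ended without supernatant A or C of either feeding state (adjusted p up to 0.0602). Nr3c2 is higher in IP than in supernatant. The summed hepatocyte markers of the supernatant, given above, had a median of 1167 CPM in fasted mice and 563 CPM in fed mice. Their part in the rise of Nr3c2 was not tested.

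None of the estrogen-related receptor genes passed by edgeR or by DESeq2, and at an unadjusted p under 0.05 there was 1, Esrra in the supernatant. Esrra had log2 changes of -0.15 ± 0.09 in fresh IP, 0.00 ± 0.15 in frozen IP and -0.29 ± 0.09 in the supernatant (adjusted p = 0.378, 0.995 and 0.133). Its coactivator gene Ppargc1a, which encodes PGC-1 alpha, averaged 531 ± 127 CPM in fresh IP of fasted mice and 139 ± 30.0 CPM in those of fed mice (SD, n = 3 each), a change of 1.95 ± 0.28 (adjusted p = 0.0017). It rose by 1.92 ± 0.28 in frozen IP and 1.33 ± 0.33 in the supernatant (adjusted p = 0.0020 and 0.0329).

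Of the 14 coactivator genes, 3 rose and 1 fell in fresh IP and in frozen IP, and 2 rose and 1 fell in the supernatant. In IP these counts lie near the 25.1% and 22.6% of all genes called in fresh and frozen tissue, and in the supernatant the share of all genes was 6.22%. Beside Ppargc1a, the related Pprc1 rose by 1.31 ± 0.37 and the arginine methyltransferase Carm1 by 0.43 ± 0.06 in fresh IP (adjusted p = 0.0160 and 0.0225), and the acetyltransferase Kat2b fell by 0.49 ± 0.09 (adjusted p = 0.0218). Of the 9 corepressor genes reported, none passed in fresh IP, frozen IP or supernatant by edgeR. At an unadjusted p under 0.05 there were 3 in fresh IP, 4 in frozen IP and 1 in the supernatant, and DESeq2 called 1 in fresh IP, the histone deacetylase gene Hdac3, and 0 in frozen IP and supernatant.

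Of the orphan receptors, Nr2f2, which encodes COUP-TFII, rose in hepatocyte nuclei. It had 28.2, 35.7 and 34.99 CPM in fresh IP of fasted mice, against 24.8, 21.9 and 22.7 CPM in those of fed mice. In frozen IP it had 28.6, 31.2 and 32.8 CPM in fasted mice, against 22.4, 18.4 and 21.5 CPM in fed mice. The groups did not overlap in either preparation.

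On the log2 scale Nr2f2 rose by 0.53 ± 0.12 in fresh tissue IP (adjusted p = 0.0218) and by 0.57 ± 0.10 in frozen tissue IP (adjusted p = 0.0203). The fresh call ended without fasted B, fasted C, fed B or fed C (adjusted p up to 0.0708), and the frozen call without any fasted library or fed C (adjusted p up to 0.0639), with changes of 0.47 to 0.63. In the supernatant its change was -0.02 ± 0.31 (adjusted p = 0.976). The authors' deposited table lists Nr2f2 at 0.46 in fresh IP and 0.50 in frozen IP, with adjusted p-values of 0.0630 and 0.0421. The endothelial markers, a cell type in which Nr2f2 is known, summed to 33.2 to 75.9 CPM in fresh IP of fasted mice and 66.4 to 127 CPM in those of fed mice. These ranges overlap, and their part was not tested.

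The other orphan receptors passed in no preparation by edgeR or by DESeq2, and Nr5a2 in frozen IP was the 1 with an unadjusted p under 0.05. Nr5a2 had 518, 562 and 692 CPM in fresh IP of fasted mice, against 896, 944 and 574 CPM in those of fed mice. Fed C overlapped the fasted libraries, and the change was -0.42 ± 0.26 (adjusted p = 0.169). Hnf4g had changes of 0.40 ± 0.33 and -0.01 ± 0.29 in IP of fresh and frozen tissue (adjusted p = 0.288 and 0.978), and 1.15 ± 0.77 in the supernatant (adjusted p = 0.314), where it had 125 counts over the 3 libraries of fasted mice and 49 over those of fed mice.

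The products of the NR4A genes, Nr4a1 (Nur77), Nr4a2 (Nurr1) and Nr4a3 (Nor1), can bind DNA without a retinoid X receptor and need no known ligand. The 250 bases before their start sites are shown because the 3 genes share a feature there, the letters TGACG of the half-site for cAMP response element binding factors, which are in capitals on either strand (CGTCA where the site lies on the other strand). They are from RefSeq (GRCm38.p6) and read 5′ to 3′ on the strand of the gene.
Nr4a1, chr15:101266596-101266845, plus strand: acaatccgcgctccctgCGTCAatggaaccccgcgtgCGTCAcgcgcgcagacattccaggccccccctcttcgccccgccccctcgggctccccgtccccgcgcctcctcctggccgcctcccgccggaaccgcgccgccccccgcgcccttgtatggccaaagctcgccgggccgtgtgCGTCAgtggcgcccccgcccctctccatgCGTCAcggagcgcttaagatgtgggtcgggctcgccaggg
Nr4a2, chr2:57124004-57124253, minus strand: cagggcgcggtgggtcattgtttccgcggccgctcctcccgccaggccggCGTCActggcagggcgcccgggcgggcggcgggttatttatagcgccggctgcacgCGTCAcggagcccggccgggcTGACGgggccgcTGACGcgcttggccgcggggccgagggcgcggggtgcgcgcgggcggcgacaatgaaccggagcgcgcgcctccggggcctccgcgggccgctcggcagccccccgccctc
Nr4a3, chr4:48045055-48045304, plus strand: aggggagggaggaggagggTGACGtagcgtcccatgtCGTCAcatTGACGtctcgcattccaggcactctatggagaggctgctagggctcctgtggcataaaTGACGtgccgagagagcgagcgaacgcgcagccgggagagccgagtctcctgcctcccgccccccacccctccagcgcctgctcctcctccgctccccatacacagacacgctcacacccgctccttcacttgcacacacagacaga

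Each of these windows holds 4 copies of TGACG. In windows from 250 bases before to 50 bases after the start, 1 or more copies on either strand stood in 23.05% of 27025 genes and in 15 of the 33 members with an entry. In these windows 4 or more copies stood in 69 genes, or 0.255%, among them no member other than these 3. The limit of 4 is the number that these 3 genes hold, so this share is no independent evidence about them. The full palindrome TGACGTCA, which counts as 2 overlapping copies of TGACG, stood in 2.03% of genes and in the members Nr2e1 and Nr6a1. The direct repeats of AGGTCA spaced by 1, 4 or 5 bases, the arrangements read by PPAR, LXR or thyroid hormone, and retinoic acid receptor dimers, stood in these exact letters in 13, 4 and 3 genes and in none of the 33 members. A match is a run of letters in a window and was not tied to binding.

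Nr4a1 had 21.2, 1.53 and 7.33 CPM in fresh IP of fasted mice, against 2.53, 3.91 and 0.452 CPM in those of fed mice. In frozen IP it had 25.7, 0.941 and 8.24 CPM in fasted mice, against 3.08, 1.89 and 0.885 CPM in fed mice. In the supernatant it had 41.7, 23.7 and 28.4 CPM in fasted mice, against 18.9, 12.4 and 15.2 CPM in fed mice. In IP the fasted libraries ranged widely, with fasted B in the range of the fed libraries in both preparations, while in the supernatant the groups did not overlap.

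Nr4a1 had log2 changes of 2.19 ± 1.42 and 2.60 ± 1.47 in IP of fresh and frozen tissue (adjusted p = 0.132 and 0.0968), for which the authors' deposited table lists adjusted p-values of 0.0962 and 0.0387, and it passed in the supernatant at 1.02 ± 0.30 (adjusted p = 0.0479). The supernatant call ended without each library in turn except fasted B (adjusted p up to 0.130). Nr4a1 was 2.29 ± 0.72 lower in IP than in supernatant on the log2 scale (adjusted p = 0.0017).

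Nr4a3 had 2.64, 0.427 and 2.401 CPM in fresh IP of fasted mice, against 0.408, 0.176 and 0.100 CPM in those of fed mice. In frozen IP it had 4.01, 0.372 and 1.95 CPM in fasted mice, against 0.630, 0.0789 and 0.108 CPM in fed mice. Fasted B was again the lowest fasted library, just above the fed ones in fresh tissue and between them in frozen tissue. These levels rest on 191 counts over the fresh IP libraries of fasted mice and 27 over those of fed mice.

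Nr4a3 had a log2 change of 2.92 ± 0.93 in fresh tissue IP (adjusted p = 0.0297) and of 2.84 ± 1.22 in frozen tissue IP (adjusted p = 0.0650), where DESeq2 called it (adjusted p = 0.0054). The fresh call ended without fasted A, fasted C, fed B or fed C (adjusted p up to 0.0995), with changes between 2.53 and 3.76. In the supernatant Nr4a3 had 4.39, 3.16 and 8.22 CPM in fasted mice, against 2.91, 2.32 and 2.94 CPM in fed mice, a change of 0.95 ± 0.41 (adjusted p = 0.142). The change in IP exceeded that in the supernatant by 1.87 ± 1.02, which did not pass (adjusted p = 0.205).

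Nr4a2 had 4.67, 2.87 and 2.20 CPM in fresh IP of fasted mice, against 2.30, 1.94 and 1.23 CPM in those of fed mice. Fasted C overlapped the fed libraries. Its log2 change was 0.86 ± 0.41 in fresh IP, 0.82 ± 0.51 in frozen IP and 0.75 ± 0.10 in the supernatant (adjusted p = 0.110, 0.209 and 0.0550).

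**Figure D4:**
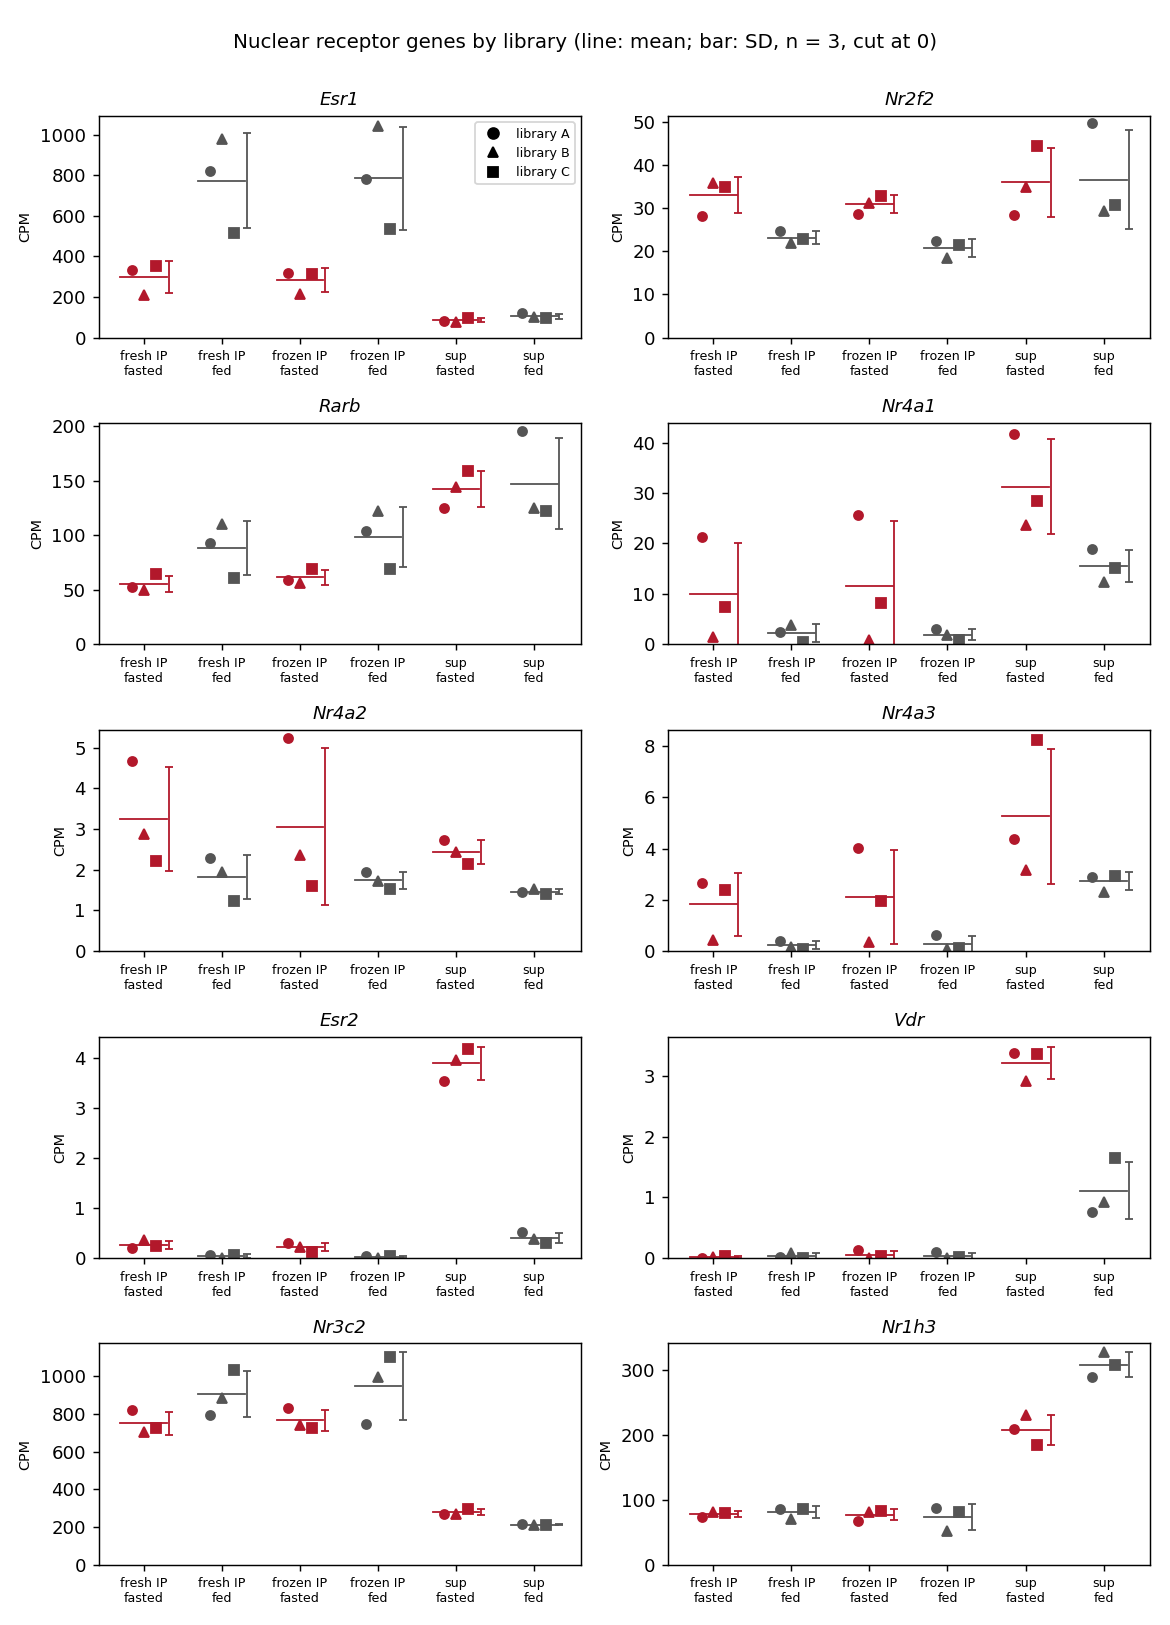
CPM of 10 nuclear receptor genes in every library, fasted left of fed within fresh IP, frozen IP and supernatant (sup); symbols are the libraries A, B and C, lines are means and bars are SD (n = 3), cut at 0. Esr1 is lower in every fasted IP library, Esr2 and Vdr are higher in every fasted supernatant, and fasted B is low for Nr4a1 and Nr4a3 in both IP preparations.

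Across the family, the change in IP differed from that in the supernatant in 2 of 31 tested members, Esr1 and Nr3c2, both lower, which is 6.45% against 9.54% of all 14322 genes (3.71% higher, 5.83% lower). By DESeq2 it differed in 4 members, with Nr1h3 and Rara added. The changes in fresh and frozen IP and in the supernatant come from the same 6 mice, so their likeness is not independent evidence.

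Freezing the liver before the immunoprecipitation left the members close to where they were. None of 28 tested members was called between frozen and fresh IP by edgeR, against 5.16% of all 13162 genes (4.72% higher, 0.441% lower in frozen). At an unadjusted p under 0.05 there was 1, Esrra, with a log2 difference of -0.29 ± 0.09 (adjusted p = 0.114), and DESeq2 called it too (adjusted p = 0.0355). With the mouse as replicate block, 3 members were called: Esrra at -0.29, Rxrg at -0.21 and Rarb at 0.18 (adjusted p = 0.0230, 0.0477 and 0.0054). The same block called 2168 of all 13162 genes, 1238 higher and 930 lower in frozen. Over the tested members the log2 difference ran from -0.29 to 0.38. Markers of other cells moved more, since 9 of 10 endothelial and 6 of 9 Kupffer markers were higher in frozen IP.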

How the data were processed

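Nuclear RNA of 18 libraries in 6 groups of 3 was analysed, and each replicate is another mouse. Libraries were, per the labels' protocols, stranded, made from total RNA without poly-A selection and read as paired ends. STAR 2.4.2a, DESeq2 1.24.0 and mm10 are named in the submitters' processing notes, without their roles. How reads were counted, and with which strand setting, is not given in the sources used here. The authors deposited raw counts per gene and, in a second table, log2 fold changes with adjusted p-values of their own, used only where it is named. A further 6 columns of the count table match no sample and were not used.

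Counts were tested with edgeR 4.0.16 in R 4.3.3 (TMM, filterByExpr by group, quasi-likelihood test, Benjamini-Hochberg adjustment over all genes, threshold 0.05), with the groups compared in each fit. Log2 changes are edgeR estimates; each SE is for the difference between mean log2 CPM of the groups, with a prior count of 2. Alternatives were RLE scaling, DESeq2 1.42.0, no low-count filter, each library left out, and the mouse as replicate block. Column letters stand in no label; same-letter libraries had correlations of 0.152 to 0.902 over 8478 genes after centring on group means, and other pairs -0.586 to 0.010, so letters were taken to pair the libraries of a mouse. Fasted and fed mice differ, so fasting changes take no such block. All 35 members are named; of each other gene list, the 3 genes with the largest change in each direction among those called in fresh IP are named, with Ppargc1a. Of the genes on these lists, 1 corepressor gene and 1 gene of thyroid hormone handling are not reported here and stand in no list count. Members, lists and rules were chosen with earlier results of these data known. Promoter sequences are those of RefSeq (GRCm38.p6), which matched 33 members; Thra and Hnf4g have none shown.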

Additional observations from a re-analysis of the deposited data

Results flagged for a closer look

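The results below are those in which the change between fasted and fed mice differed between fresh IP and supernatant by edgeR's interaction test, each given as the log2 change in IP minus that in the supernatant, and of the gene lists beside the family only genes named in the report are shown. Of all 14322 genes tested, 9.54% were called in this test (3.71% higher, 5.83% lower). Of the 31 tested nuclear receptor genes, those called were Esr1 at -1.11 and Nr3c2 at -0.71 (adjusted p = 0.0443 and 0.0221). Of the 14 tested coactivators 1 was higher and 1 lower, and the named one was Pprc1 at 1.47 (adjusted p = 0.0251), which rose in IP and had -0.22 ± 0.19 in the supernatant (adjusted p = 0.444). Of the 16 tested PPAR alpha targets 2 were higher, and the named one was Acot1 at 3.18 (adjusted p = 0.00058), which rose in both fractions. Of the 11 tested LXR targets 1 was higher and 4 were lower, and the named ones were Scd1 at -3.67, Srebf1 at -2.95 and Pltp at -2.69 (adjusted p = 0.0296, 0.00095 and 0.0029). Of the 8 tested thyroid hormone genes 1 was lower, and of the 3 tested vitamin D genes 2 were. These were Thrsp at -4.79, Cyp2r1 at -0.999 and Cyp27a1 at -0.85 (adjusted p = 0.0246, 0.0166 and 0.0135), each of which fell in IP and passed no test in the supernatant.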

How the results depend on the processing

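No member reversed a called direction under any alternative run. DESeq2 called more: 6 members in fresh IP, 5 in frozen IP, 1 between frozen and fresh IP and 4 in the difference of fasting changes, and over all genes 1881 in the supernatant and 2326 in that difference, against 866 and 1367 by edgeR. Without the low-count filter 5 members were called in fresh IP. Under RLE scaling 1 member, Nr3c2, remained in the difference of fasting changes. With the mouse as replicate block, which pairs libraries of a mouse, frozen against fresh IP gave 2168 genes and 3 members, against 679 and 0 without it, and the block changed no other member's call. Leaving out 1 library at a time gave 1 to 4 members in fresh IP, 1 to 3 in frozen IP, 1 to 3 in the supernatant and 0 to 3 in the difference of fasting changes. Over all genes it gave 1429 to 2643 in fresh IP, 1168 to 2271 in frozen IP, 197 to 624 in the supernatant, 409 to 711 between frozen and fresh IP and 771 to 1485 in the difference. The lowest count in each fasting comparison came without fasted A. With 3 mice a group, and with few counts for Vdr, Esr2, Nr2f1 and the NR4A genes in IP, changes of these members in hepatocyte nuclei were measured with little precision.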
